A study of Mus musculus with 6 samples.

Results

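Transcripts of the insulin-like growth factor (IGF) system were measured in cold-stimulated inguinal fat, as 10 genes taken by name from the 17342 named genes: the ligand genes Igf1 and Igf2, the receptor genes Igf1r and Igf2r, and the binding-protein genes Igfbp2, Igfbp3, Igfbp4, Igfbp5, Igfbp6 and Igfbp7. All 10 had a row in every library, and 9 had a mean of at least 1 FPKM (sequenced fragments divided by the length of the transcript and by the size of the library) and were tested. Inguinal white adipose tissue came from 8-week-old mice of the C57BL/6 strain, either Rarres2-/-, in which the gene for the adipocyte-secreted protein chemerin is disrupted, or wild type (WT). Both groups were cold-stimulated and no unstimulated fat was analysed here, so the cold itself is not part of the comparison. There were 3 libraries per genotype, numbered 4 to 6 in Rarres2-/- and 1 to 3 in WT. Whether the libraries are separate mice is not in the labels, and p-values cover the spread between libraries, which may be technical. How cold and how long the exposure was, which sex was used and which part of Rarres2 was deleted are not stated in the labels.

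The ligands act through the receptor tyrosine kinase encoded by Igf1r, which shares its signalling proteins with the insulin receptor. Igf2r encodes the mannose-6-phosphate receptor, which takes up and degrades the Igf2 protein and does not signal as a kinase. Binding proteins carry the ligands in blood and tissue and regulate how much of them reaches the receptor. Fat is a source of Igf1 in addition to the liver, and adipocyte progenitors respond to it.

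The targeted gene checked the labels, with Rarres2 at 0.260, 6.35 and 1.41 FPKM in Rarres2-/- replicates 4, 5 and 6, against 436, 610 and 505 FPKM in WT replicates 1, 2 and 3. The white adipocyte markers were present in every library, with 7 of 7 tested and summed levels of 28462 to 57875 FPKM in Rarres2-/- and 38387 to 47127 FPKM in WT. The absolute depth is unknown, and the spacing of the lowest values put WT replicate 1 at 0.532 times the depth of WT replicate 2 and the other libraries at 0.697 to 1.01 times. Rarres2-/- replicate 4 and WT replicate 1 stood apart in vessel markers. Summed over 7 endothelial markers, the level was 171 FPKM in Rarres2-/- replicate 4 and 275 FPKM in WT replicate 1, against 48.4 to 56.6 FPKM in the other 4 libraries. Summed over 10 progenitor and fibroblast markers, it was 1369 FPKM in WT replicate 1, against 2445 to 6075 FPKM in the others. Mammary epithelium markers were under 1 FPKM in every library (5 of 5), as were 3 of 4 mesothelium markers. In bulk tissue, fewer cells of a type and less RNA per cell cannot be told apart.

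None of the 9 tested genes differed between the genotypes by limma with Benjamini-Hochberg adjustment over 11086 genes (threshold 0.05), where 0% of all tested genes were called. The disrupted gene itself was not called in this fit, with a log2 difference of -7.51 for Rarres2 and a limma adjusted p of 0.0597, so a gene that misses the threshold is not shown to be alike in both genotypes. None had an unadjusted p under 0.05, against 3.93% of all tested genes. In none of the 9 did the genotypes separate into ranges that do not overlap, against 10.3% of all tested genes. Of the 9 genes, 3 had a higher and 6 a lower mean log2 value in Rarres2-/-, with a median log2 difference of -0.08, against -0.01 over all tested genes. The median standard deviation of log2(FPKM + 1) over the 6 libraries was 0.47 for the 9 genes, against 0.25 for all tested genes.

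**Figure D1:**
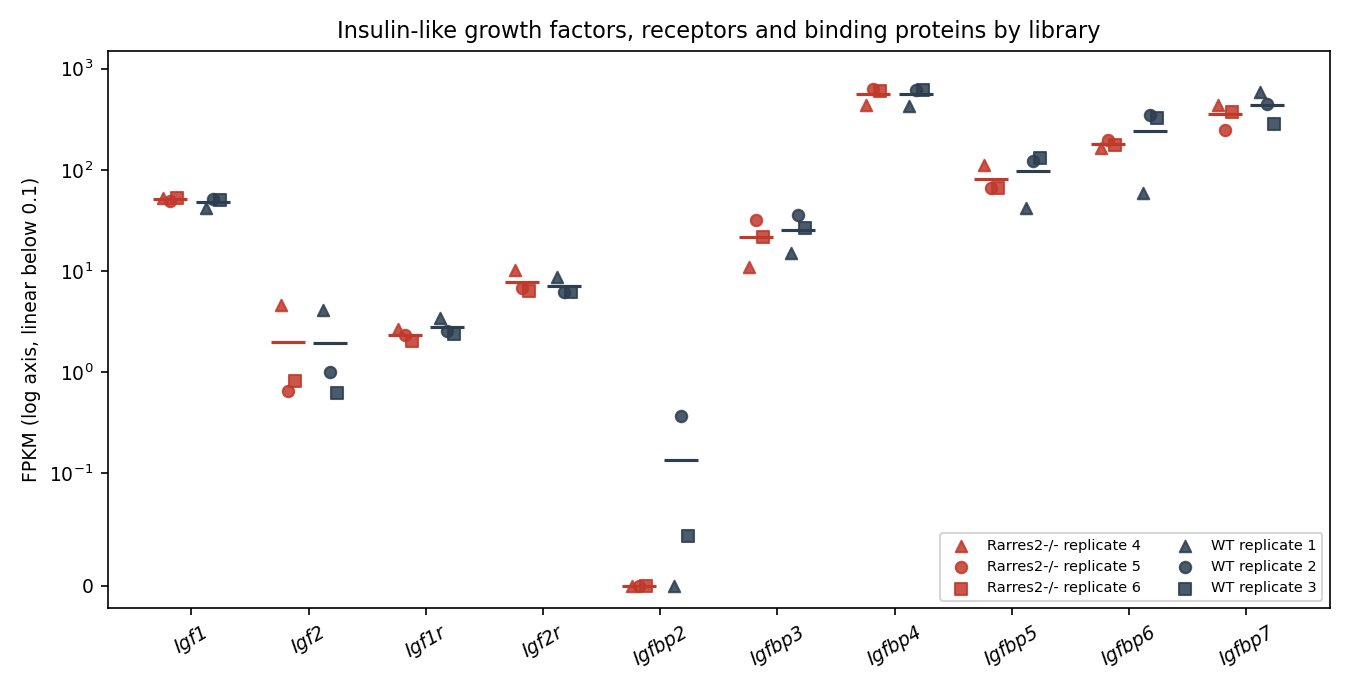
FPKM of the 10 genes in each library (log axis, linear below 0.1), with Rarres2-/- left of WT in each pair and a dash at the mean of 3 libraries. Binding-protein transcripts Igfbp4 and Igfbp7 lie highest and Igfbp2 is at or near 0, and for each of the 9 tested genes the genotypes overlap.

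Igf2, Igf1r and Igf2r had their highest pair of values in the same libraries in which Igfbp3, Igfbp4 and Igfbp6 had their lowest, Rarres2-/- replicate 4 and WT replicate 1. Of all tested genes, 13.7% had both of these libraries highest and 16.7% had both lowest. The stretches of 100 bases before the annotated starts are printed for these 6 genes. They were picked because this pair of libraries was either highest or lowest in each of them, so they do not share 1 order. They come from RefSeq (GRCm38, the same assembly as mm10), read 5′ to 3′ on the strand of the gene, and all 10 genes matched a start. Capitals mark a TATAAA or TATATA (forms of the TATA box) or a GGGCGG (the GC box bound by Sp1 family factors), searched on both strands. GGGCGG was in 6 of the 14 stretches at annotated starts of the 10 genes and in 24.7% of the 32851 stretches of all genes. TATAAA was in 1 of the 14, that of Igfbp4, and in 5.56% of all stretches, and TATATA in 1, that of Igfbp3, and in 2.19%. For Igf2, which has 4 annotated starts, the most downstream one is shown, since FPKM per gene does not resolve which start was used.
Igf2 (chr7:142657497-142657596, minus strand): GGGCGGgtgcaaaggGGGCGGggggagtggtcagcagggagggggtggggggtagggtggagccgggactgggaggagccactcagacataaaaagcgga
Igf1r (chr7:67952157-67952256, plus strand): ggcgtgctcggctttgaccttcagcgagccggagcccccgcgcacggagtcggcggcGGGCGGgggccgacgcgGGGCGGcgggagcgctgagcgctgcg
Igf2r (chr17:12769707-12769806, minus strand): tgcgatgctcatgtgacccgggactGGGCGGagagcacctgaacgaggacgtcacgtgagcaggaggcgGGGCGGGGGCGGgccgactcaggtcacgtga
Igfbp3 (chr11:7213924-7214023, minus strand): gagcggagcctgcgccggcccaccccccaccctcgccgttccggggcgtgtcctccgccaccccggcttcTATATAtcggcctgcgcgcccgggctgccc
Igfbp4 (chr11:99041144-99041243, plus strand): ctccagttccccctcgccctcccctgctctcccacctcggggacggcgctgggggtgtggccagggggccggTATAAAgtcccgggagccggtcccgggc
Igfbp6 (chr15:102144086-102144185, plus strand): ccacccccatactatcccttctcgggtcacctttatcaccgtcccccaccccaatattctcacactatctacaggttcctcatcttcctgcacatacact
In the stretches shown, Igf2, Igf1r and Igf2r hold GGGCGG, Igfbp3 and Igfbp4 hold a TATA form, and Igfbp6 holds none of the motifs. Of the 4 Igf2 starts, 2 hold no GGGCGG. Igfbp7, in which that pair of libraries was neither highest nor lowest, and the untested Igfbp2 each have a start with GGGCGG. A match is a description of the letters in this window only.

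Igf1, the main growth-promoting ligand after birth, was the steadiest of the family. It was at 52.5, 49.6 and 52.7 FPKM in Rarres2-/- replicates 4, 5 and 6, against 42.1, 51.4 and 50.1 FPKM in WT replicates 1, 2 and 3. Only WT replicate 1 lay lower than the rest, and the other 5 libraries lay within 49.6 to 52.7 FPKM. The mean was 51.6 ± 1.71 FPKM in Rarres2-/- and 47.9 ± 5.04 FPKM in WT (SD, n = 3 each), and the log2 difference was 0.11 (SE 0.148, 95% interval -0.24 to 0.46, limma adjusted p = 0.999). Without WT replicate 1 the log2 difference was 0.023. The highest library was 1.25 times the lowest, and 8.49% of all tested genes varied less over the 6 libraries. Igf1 (chromosome 10, 87858265 to 87937047, plus strand, GRCm38) overlaps the antisense gene Igf1os, and the counting is not stated to use strand, so reads from that overlap cannot be told apart.

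Igf2, the fetal growth factor that is expressed from the paternal allele and falls after birth in rodents, was low and split the libraries. It was at 4.57, 0.648 and 0.822 FPKM in Rarres2-/- replicates 4, 5 and 6, against 4.15, 1.01 and 0.617 FPKM in WT replicates 1, 2 and 3. One library of each genotype, Rarres2-/- replicate 4 and WT replicate 1, stood far above the other 4, and the genotypes spanned nearly the same range. Its log2 difference was -0.0023 (SE 0.599, 95% interval -1.43 to 1.42, limma adjusted p = 0.999). It was -0.56 without Rarres2-/- replicate 4 and 0.50 without WT replicate 1, and also above 0 without Rarres2-/- replicate 5 (0.31) or 6 (0.24). Igf1 exceeded Igf2 by 11.5 times in Rarres2-/- replicate 4 and 10.1 times in WT replicate 1, but by 50.6 to 81.2 times in the other 4 libraries.

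Markers of vessels followed the same split. Of 7 endothelial markers 6, and of 6 mural markers (pericytes and smooth muscle) 6, had their highest pair of values in Rarres2-/- replicate 4 and WT replicate 1, as did 13.7% of all tested genes. Summed mural markers were at 131, 41.5 and 47.8 FPKM in Rarres2-/- replicates 4, 5 and 6, and at 116, 38.8 and 34.9 FPKM in WT replicates 1, 2 and 3. Igf2 deviated from its mean log2 value by 1.12 in Rarres2-/- replicate 4 and by 1.01 in WT replicate 1, where the median endothelial marker deviated by 1.24 and 1.76. Summed skeletal muscle markers were highest in WT replicate 1 (878 FPKM) and at 82.0 to 290 FPKM elsewhere. The part of these cell types in the level of Igf2 was not tested.

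H19, the non-coding RNA gene that shares its imprinting control with Igf2 and lies 72.6 kb from it on chromosome 7, did not split that way. It was at 1.83, 3.92 and 9.47 FPKM in Rarres2-/- replicates 4, 5 and 6, against 10.9, 6.65 and 3.66 FPKM in WT replicates 1, 2 and 3. It was the lowest of all in Rarres2-/- replicate 4 and the highest of all in WT replicate 1, both of which had high Igf2. The antisense transcript Igf2as was listed at no more than 0.0230 FPKM in any library. Igf2 overlaps Gm49394 and Mir483 on its own strand and an antisense gene, listed in the annotation of overlaps as Igf2os. Whether Igf2as and Igf2os are names of the same gene was not checked. Reads of these overlaps cannot be told apart without knowing how they were counted.

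Igf1r, the signalling receptor, was low throughout. It was at 2.69, 2.35 and 2.02 FPKM in Rarres2-/- replicates 4, 5 and 6, against 3.41, 2.58 and 2.41 FPKM in WT replicates 1, 2 and 3. Rarres2-/- replicate 6 held the lowest value and WT replicate 1 the highest, and the ranges overlapped between 2.41 and 2.69 FPKM. Between the genotypes the log2 difference was -0.18 (SE 0.167, 95% interval -0.57 to 0.22, limma adjusted p = 0.999). It stayed below 0 with any 1 library left out, at -0.25 to -0.06.

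Igf2r, the receptor that clears Igf2 and is expressed from the maternal allele in the mouse, was at 10.3, 6.82 and 6.28 FPKM in Rarres2-/- replicates 4, 5 and 6, against 8.74, 6.23 and 6.25 FPKM in WT replicates 1, 2 and 3. As with Igf2, Rarres2-/- replicate 4 and WT replicate 1 were highest, and the other 4 libraries lay within 6.23 to 6.82 FPKM. The log2 difference was 0.11 (SE 0.219, 95% interval -0.41 to 0.63, limma adjusted p = 0.999), and it was -0.08 without Rarres2-/- replicate 4. Igf2r (chromosome 17, 12682406 to 12769706, minus strand, GRCm38) overlaps the antisense gene Airn, which silences it on the paternal allele in the mouse. Airn was at 1.95, 4.35 and 1.81 FPKM in Rarres2-/- and 3.52, 2.38 and 2.39 FPKM in WT, and without strand the reads of their overlap cannot be told apart.

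Ratios between genes of 1 library do not depend on how libraries are scaled to each other. Of the 36 ratios between pairs of the 9 tested genes, 1 separated the genotypes, a share of 2.78%. The ratio of Igf2r to Igf1r was 3.85, 2.90 and 3.11 in Rarres2-/- replicates 4, 5 and 6, against 2.56, 2.41 and 2.59 in WT replicates 1, 2 and 3. Each Rarres2-/- library thus held more Igf2r transcript per Igf1r transcript than any WT library. The insulin receptor gene Insr, whose product also pairs with that of Igf1r in hybrid receptors, separated as well in its ratio to Igf1r, with 5.97, 5.39 and 5.22 in Rarres2-/- and 3.50, 3.82 and 4.32 in WT. Over all tested genes, 10.9% separated the genotypes in their ratio to Igf1r, so such a ratio is not rare in these libraries, and both ratios were singled out after their values were seen. Alone, Insr was at 16.1, 12.7 and 10.5 FPKM in Rarres2-/- and 11.9, 9.86 and 10.4 FPKM in WT, with overlapping ranges.

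**Figure D2:**
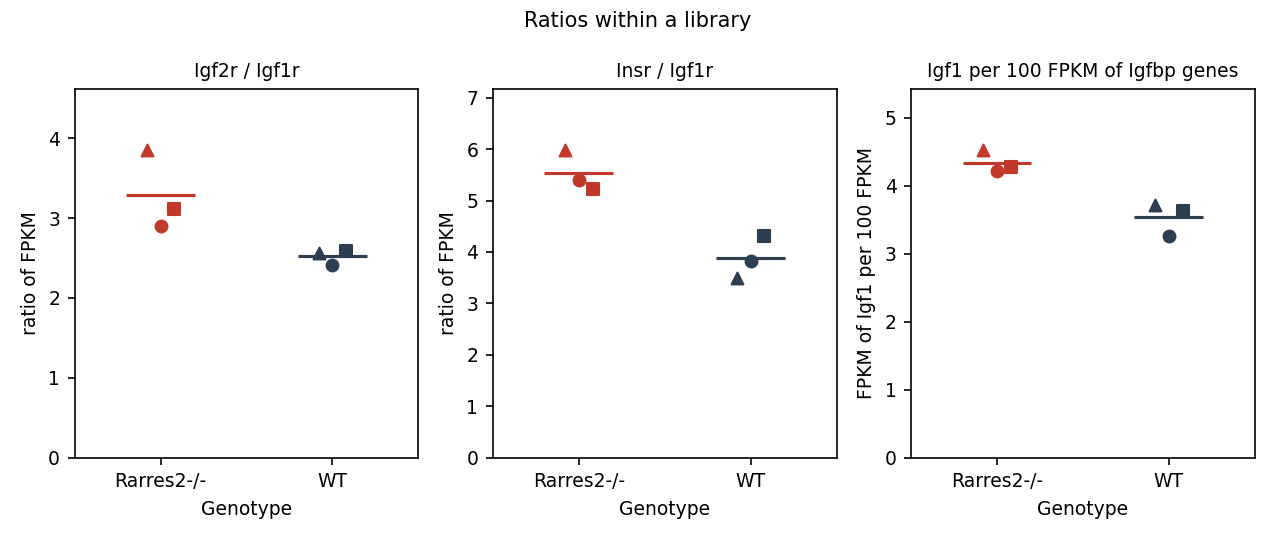
Ratio of FPKM of Igf2r to Igf1r, of Insr to Igf1r, and FPKM of Igf1 per 100 FPKM summed over the 6 binding-protein genes, per library (points) with the mean of 3 (line), Rarres2-/- left of WT. The Igf2r to Igf1r ratio lies at 2.90 to 3.85 in Rarres2-/- and at 2.41 to 2.59 in WT.

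Among the binding proteins, Igfbp4 and Igfbp7 made up most of the transcript pool. Summed over the 6 genes, binding-protein transcripts were at 1162, 1177 and 1232 FPKM in Rarres2-/- replicates 4, 5 and 6, against 1134, 1577 and 1382 FPKM in WT replicates 1, 2 and 3. Igfbp4 and Igfbp7 together held 74.8% to 78.7% of that sum in Rarres2-/- and 65.3% to 89.8% in WT. The WT libraries spread more widely, with the lowest and the highest sum of all 6 libraries. Igf1 was at 4.52, 4.22 and 4.28 FPKM per 100 FPKM of binding-protein transcripts in Rarres2-/-, against 3.71, 3.26 and 3.63 in WT. This quantity did not overlap between the genotypes, and it too was singled out after its values were seen. Alone, 10.3% of all tested genes did not overlap, and the share for ratios to this sum was not computed. The ratios of Igf1 to Igfbp4 and of Igf1 to Igfbp7 overlapped between the genotypes.

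**Figure D3:**
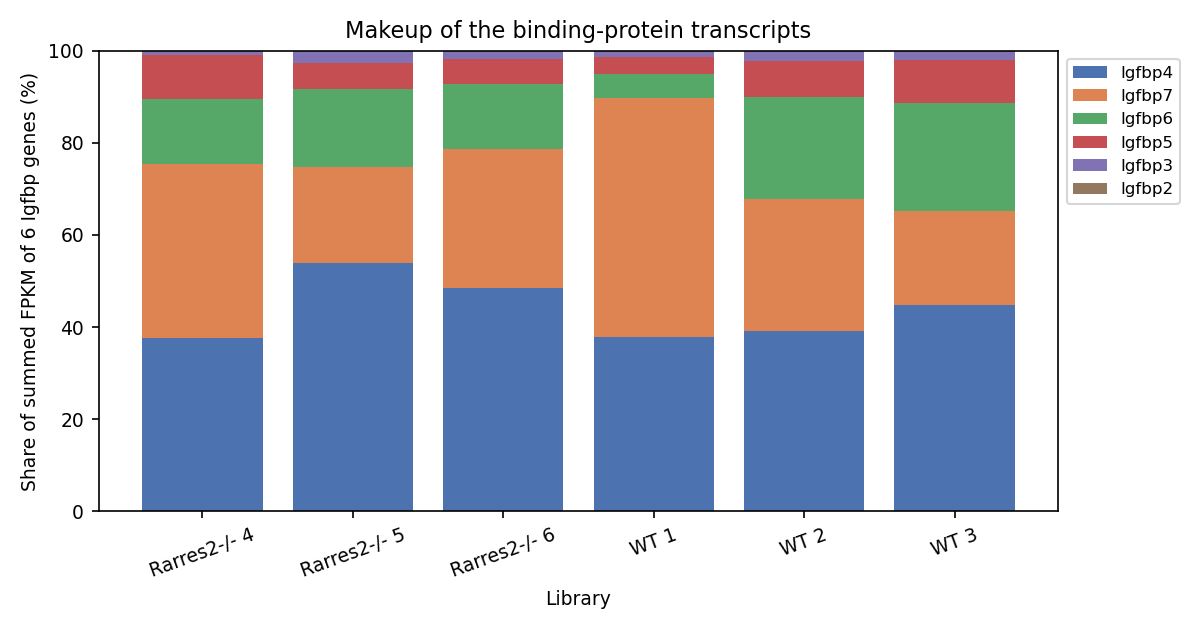
Share of each binding-protein gene in the summed FPKM of the 6 Igfbp genes (percent, stacked bars), by library, Rarres2-/- left of WT. Igfbp7 holds 51.9% in WT replicate 1, above its 20.4% to 37.8% elsewhere, and Igfbp6 holds 5.17% there, below its 14.1% to 23.4% elsewhere.

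Igfbp4, which binds the ligands and holds them back from the receptor until a protease cuts it, was the most abundant of the 10 genes by mean. It was at 438, 635 and 597 FPKM in Rarres2-/- replicates 4, 5 and 6, against 430, 619 and 620 FPKM in WT replicates 1, 2 and 3. Rarres2-/- replicate 4 and WT replicate 1 were low and the other 4 libraries lay within 597 to 635 FPKM. The means were nearly equal, at 557 ± 105 FPKM in Rarres2-/- and 556 ± 110 FPKM in WT (SD, n = 3 each), with a log2 difference of 0.0033 (SE 0.252, 95% interval -0.60 to 0.60, limma adjusted p = 0.999). Its sign changed with WT replicate 1 left out (-0.17) and with Rarres2-/- replicate 5 (-0.10) or 6 (-0.06) left out.

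Igfbp7, a binding protein of low ligand affinity that is known from blood vessels, was at 439, 245 and 372 FPKM in Rarres2-/- replicates 4, 5 and 6, against 588, 450 and 282 FPKM in WT replicates 1, 2 and 3. WT replicate 1 was highest and Rarres2-/- replicate 5 lowest, and the genotypes overlapped. Igfbp7 had a log2 difference of -0.30 (SE 0.346, 95% interval -1.12 to 0.52, limma adjusted p = 0.999), and it was -0.06 without WT replicate 1. Igfbp7 exceeded Igfbp4 in WT replicate 1 by 1.37 times and was nearly level with it in Rarres2-/- replicate 4, and it was at 0.386 to 0.727 times Igfbp4 in the other 4 libraries. Over the 6 libraries Igfbp4 had a mean of 556 FPKM and Igfbp7 one of 396 FPKM. Their ranges, 430 to 635 FPKM for Igfbp4 and 245 to 588 FPKM for Igfbp7, overlapped. Igfbp7 (chromosome 5, 77349240 to 77408045, minus strand, GRCm38) overlaps Polr2b on the opposite strand, and reads of the overlap cannot be told apart without strand.

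Igfbp6, which prefers Igf2 over Igf1 as its ligand, was the most variable member among the tested binding proteins. It was at 164, 199 and 174 FPKM in Rarres2-/- replicates 4, 5 and 6, against 58.6, 350 and 323 FPKM in WT replicates 1, 2 and 3. The Rarres2-/- libraries lay close together, between a single low WT library and the other WT libraries. The standard deviation of its log2 value was 0.14 in Rarres2-/- and 1.45 in WT, and 97.4% of all tested genes varied less over the 6 libraries. The log2 difference was -0.08 (SE 0.659, 95% interval -1.64 to 1.49, limma adjusted p = 0.999). It was -0.91 without WT replicate 1, but 0.37 without WT replicate 2 and 0.31 without WT replicate 3.

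Progenitor and macrophage markers were also lowest in WT replicate 1. This held for 10 of 10 progenitor and fibroblast markers and 8 of 8 tested macrophage markers, and for 28.9% of all tested genes. The progenitor gene Pi16 was at 124, 182 and 132 FPKM in Rarres2-/- replicates 4, 5 and 6, against 12.3, 358 and 352 FPKM in WT replicates 1, 2 and 3, the same order of groups of libraries as Igfbp6. Summed macrophage markers were at 923 to 1191 FPKM in Rarres2-/-, and at 473, 2012 and 2009 FPKM in WT replicates 1, 2 and 3. The part of these cells in the level of Igfbp6 was not tested.

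Igfbp5, which also binds extracellular matrix, was at 111, 65.6 and 66.8 FPKM in Rarres2-/- replicates 4, 5 and 6, against 42.0, 123 and 130 FPKM in WT replicates 1, 2 and 3. WT replicate 1 was the lowest library and the other WT libraries the highest, with Rarres2-/- between them. The log2 difference was -0.15 (SE 0.462, 95% interval -1.25 to 0.94, limma adjusted p = 0.999). It was 0.09 without WT replicate 2 and 0.13 without WT replicate 3. Without both Rarres2-/- replicate 4 and WT replicate 1, Igfbp5 was the 1 member called, at -0.92 (limma adjusted p = 0.0414). This fit of 2 against 2 libraries called 0.613% of all tested genes. It set 65.6 and 66.8 FPKM in Rarres2-/- against 123 and 130 FPKM in WT. The libraries left out had stood apart in these same data, so the call is not independent support for a difference. Array weights were 6.19 for Rarres2-/- replicate 5, and 0.179 and 0.192 for Rarres2-/- replicate 4 and WT replicate 1. With these weights Igfbp5 was at -0.85 (limma adjusted p = 0.0282), in a fit that called 13.7% of all tested genes. Over all alternatives the adjusted p of Igfbp5 ran from 0.0282 to 1. Igfbp6 had -0.85 in the fit without both libraries (limma adjusted p = 0.0545). In those 4 libraries, summed progenitor and fibroblast markers were at 2445 and 2448 FPKM in Rarres2-/- replicates 5 and 6, against 6075 and 4451 FPKM in WT replicates 2 and 3. Summed macrophage markers were at 1191 and 923 FPKM in Rarres2-/- replicates 5 and 6, against 2012 and 2009 FPKM in WT replicates 2 and 3. The part of these cells in the values of Igfbp5 and Igfbp6 was not tested.

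**Figure D4:**
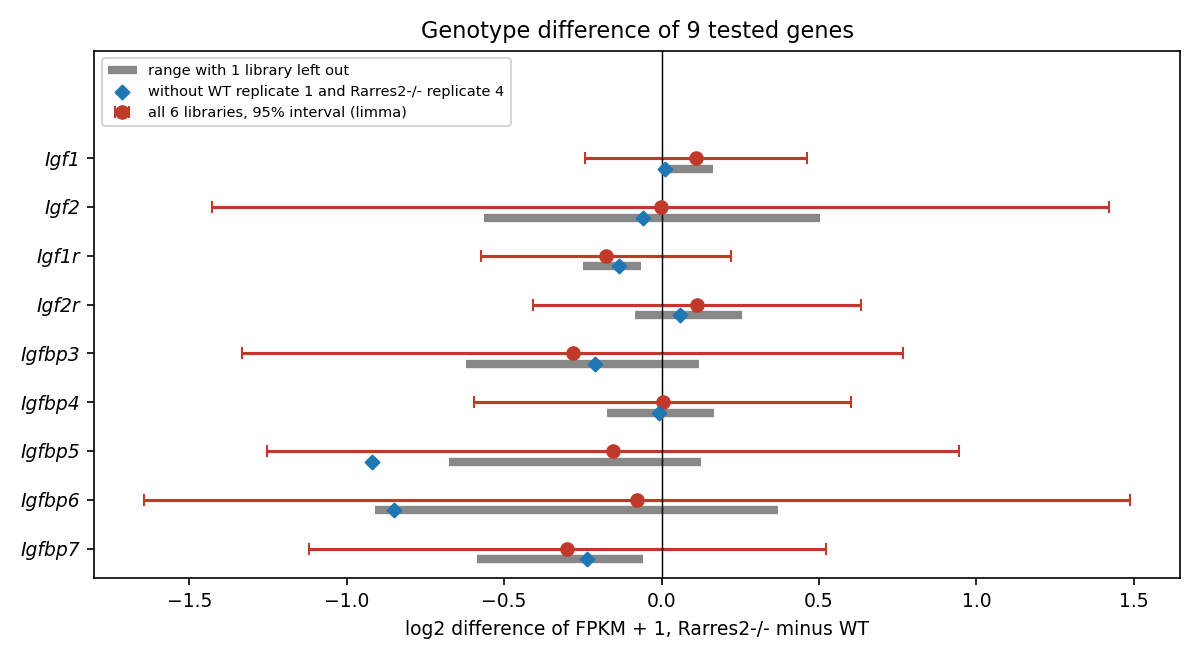
Log2 difference of FPKM + 1, Rarres2-/- minus WT, for the 9 tested genes, with the 95% interval from limma (bars), the range with 1 library left out (grey) and the value without Rarres2-/- replicate 4 and WT replicate 1 (diamonds). All 9 intervals include 0, and the diamonds of Igfbp5 and Igfbp6 lie at -0.92 and -0.85.

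Igfbp3, the main carrier of the ligands in blood together with the product of Igfals, was the lowest of the tested binding proteins. It was at 10.9, 32.2 and 21.5 FPKM in Rarres2-/- replicates 4, 5 and 6, against 15.0, 35.4 and 26.5 FPKM in WT replicates 1, 2 and 3. Rarres2-/- replicate 4 and WT replicate 1 were the lowest libraries, opposite to Igf2. The log2 difference was -0.28 (SE 0.442, 95% interval -1.33 to 0.77, limma adjusted p = 0.999), and it was 0.12 without Rarres2-/- replicate 4. Per Igfbp3 transcript, there were 4.82, 1.54 and 2.45 Igf1 transcripts in Rarres2-/-, against 2.81, 1.45 and 1.89 in WT, with overlapping ranges.

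Igfbp2, a binding protein secreted by differentiating white preadipocytes and by the liver, was listed at 0 in all 3 Rarres2-/- libraries and in WT replicate 1, and at 0.366 and 0.0441 FPKM in WT replicates 2 and 3. It did not reach a mean of 1 FPKM and was not tested. Its neighbour on chromosome 1, Igfbp5, lies 5.59 kb away on the opposite strand, with the 3′ ends of both genes facing each other, and its lowest library held 42.0 FPKM.

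**Figure D5:**
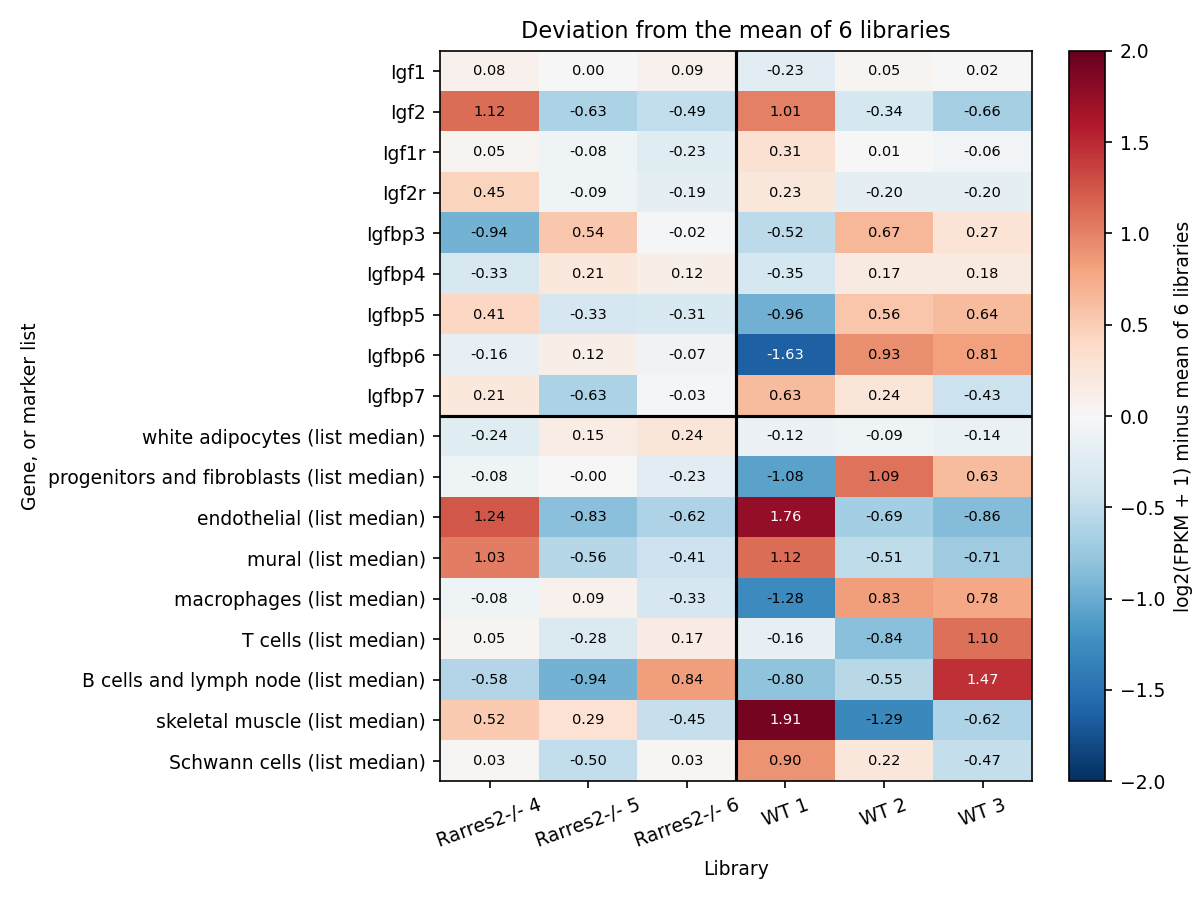
Deviation of log2(FPKM + 1) from the mean of 6 libraries for the 9 tested genes, and the median deviation of each marker list, by library, Rarres2-/- left of WT. Igf2 is high in Rarres2-/- replicate 4 (1.12) and WT replicate 1 (1.01), as are the endothelial list (1.24 and 1.76) and the mural list (1.03 and 1.12), and Igfbp6 is lowest in WT replicate 1 (-1.63).

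By mean FPKM over the 6 libraries the order of levels was Igfbp4 (556), Igfbp7 (396), Igfbp6 (211), Igfbp5 (89.6), Igf1 (49.7), Igfbp3 (23.6), Igf2r (7.44), Igf1r (2.58), Igf2 (1.97) and Igfbp2 (0.0683). The ranges over libraries of neighbours in this order overlapped for Igfbp4 and Igfbp7, Igfbp7 and Igfbp6, Igfbp6 and Igfbp5, Igfbp5 and Igf1, and Igf1r and Igf2. Between Igf1 and Igfbp3, Igfbp3 and Igf2r, Igf2r and Igf1r, and Igf2 and Igfbp2 they did not overlap.

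The genes whose pattern over the 6 libraries lay nearest to that of each member were found by the mean absolute difference of log2 values centred on each gene's mean. For Igf2 they were Ltbp4, which codes for a latent TGF-beta binding protein of the matrix (0.0861), and Etl4 (0.0946), and 0.019% of the genes searched lay within 0.1. Ltbp4 was at 35.5, 9.78 and 8.94 FPKM in Rarres2-/-, against 30.5, 11.1 and 8.05 FPKM in WT, with the same high libraries as Igf2. For Igfbp6 they were Ms4a6d, a gene of macrophages (0.0609), and Bmp7 (0.0633), with 0.0571% within 0.1. Bmp7, a secreted factor that promotes brown fat formation in mice, was at 1.94, 2.11 and 2.17 FPKM in Rarres2-/-, against 0.0648, 5.48 and 4.59 FPKM in WT. Its nearness to Igfbp6 is on log2(FPKM + 1), a scale on which low genes show smaller changes. In FPKM, Bmp7 spread over a wider fold range than Igfbp6, whose highest library was 5.98 times its lowest. For Igfbp5 they were Lgi2 (0.0774) and Ces2g (0.0856), and for Igfbp4 Pdcd10 (0.0245) and Manf (0.0311). Igf2r lay nearest to Fsd1l (0.0416) and Map4k3 (0.0434), Igfbp3 to Kpna2 (0.172) and Fxyd2 (0.193), and Igfbp7 to Rhbdf2 (0.121) and Birc5 (0.123). Steady genes have many near neighbours, and for Igf1, nearest to Sae1 (0.0246) and Atg13 (0.0250), 8.71% of the genes searched lay within 0.1, and for Igf1r, nearest to Ctu1 (0.0192) and Cdkn3 (0.0218), 4.26%.

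Genes that act around the family were counted from lists by role, without a test of any list as a set. Over all 11086 tested genes, 5383 had a higher mean log2 value in Rarres2-/-, with a median log2 difference of -0.01. Of 8 tested genes of the list of growth hormone axis and IGF carriers, which also held Insr, 0 were called by limma, and 6 had a higher and 2 a lower mean log2 value in Rarres2-/-, with a median log2 difference of 0.14. Ghr, the growth hormone receptor that induces Igf1, was at 338, 387 and 363 FPKM in Rarres2-/-, against 236, 324 and 271 FPKM in WT (log2 difference 0.40, SE 0.194, limma adjusted p = 0.999). Ghr was the 1 gene of the 8 in which the genotypes did not overlap. Every Rarres2-/- library lay above every WT library in 5.81% of all tested genes. Igfals, which codes for the acid-labile subunit of the circulating complex with Igfbp3, was at 29.2, 15.9 and 24.1 FPKM in Rarres2-/-, against 17.7, 17.1 and 15.3 FPKM in WT, with overlapping ranges. The growth hormone feedback gene Cish had a log2 difference of -0.63 (SE 0.523), and Igfbp1 was not analysed here.

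Of 10 tested genes of IGFBP proteases and their inhibitors, 0 were called by limma, with a median log2 difference of -0.08. Pappa and Pappa2, which code for proteases of IGF binding proteins, were listed at no more than 0.151 and 0.183 FPKM, below the mean of 1 FPKM. Stc2, an inhibitor of the Pappa protease, was at 6.27, 7.50 and 6.89 FPKM in Rarres2-/-, against 5.54, 9.34 and 4.66 FPKM in WT. The secreted serine protease gene Htra3 was at 214, 123 and 145 FPKM in Rarres2-/-, against 108, 144 and 118 FPKM in WT (log2 difference 0.35, SE 0.25). Next by p were the lysosomal protease gene Ctsd (log2 difference 0.31, SE 0.318), the gelatinase gene Mmp9 (-0.39, SE 0.426) and the metalloproteinase inhibitor gene Timp1 (0.44, SE 0.503), all with overlapping ranges.

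Of 17 tested genes of IGF receptor signalling, 0 were called by limma. A higher mean log2 value in Rarres2-/- was found in 13 of them, against 5383 of all 11086 tested genes. The median log2 difference was 0.14, against -0.01 over all tested genes. In 3 of the 17, Irs2, Mtor and Akt2, every Rarres2-/- library lay above every WT library, against 5.81% of all tested genes. Irs2, an adaptor of the insulin and IGF receptors, was at 14.9, 9.06 and 11.6 FPKM in Rarres2-/-, against 4.72, 4.36 and 5.59 FPKM in WT (log2 difference 1.10, SE 0.196, limma adjusted p = 0.880). Mtor, the kinase of growth signalling, had a log2 difference of 0.41 (SE 0.146), and Akt2, the main Akt kinase of insulin-stimulated glucose uptake, one of 0.27 (SE 0.161). The partner adaptor Irs1 had a log2 difference of -0.17 (SE 0.221), with overlapping ranges.

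Of 9 tested imprinted growth genes, 0 were called by limma, with a median log2 difference of 0.01. In 2 of the 9 the genotypes separated, both higher in Rarres2-/-, against 5.81% of all tested genes. Mest, a paternally expressed gene known from expanding adipocytes, was at 98.3, 13.4 and 26.2 FPKM in Rarres2-/-, against 5.60, 6.89 and 7.45 FPKM in WT (log2 difference 2.16, SE 0.643, limma adjusted p = 0.999). Slc22a3, an organic cation transporter gene 175 kb from Igf2r that Airn also silences in mouse placenta, was at 43.2, 28.0 and 26.5 FPKM in Rarres2-/-, against 18.8, 19.3 and 21.2 FPKM in WT (log2 difference 0.66, SE 0.209, limma adjusted p = 0.999). Of the 3 genes for Igf2 mRNA-binding proteins, Igf2bp2 alone was tested, with 1.65, 2.01 and 1.91 FPKM in Rarres2-/- and 1.98, 2.02 and 2.14 FPKM in WT.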

How the data were processed

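The authors deposited RNA-seq values in FPKM, 1 table per library, per the file headers. For WT replicate 3 the header gives a sample name and no unit, and the table was read as FPKM, since its median over tested genes was 9.23 and that of the others 9.05 to 9.37. Bowtie and mm10 are named in the submitters' processing notes. Neither the program that computed FPKM nor its annotation, strand handling or version is stated in the labels. FPKM removes depth, so counting intervals cannot be given and the absolute depth is unknown. A shift in very abundant genes can also move all others. In WT replicate 1, Snord2 held 62.1% of the summed FPKM, which is not a share of reads. The median over tested genes was 9.05 FPKM in WT replicate 1 and 9.05 to 9.37 FPKM elsewhere. The 737 rows without a symbol (0.793% to 4.91% of the summed values) were left out.

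The 11086 genes averaging 1 FPKM or more were tested on log2(FPKM + 1), a scale on which low genes show smaller changes. The test was limma's moderated two-sided test (version 3.58.1, R 4.3.3, with a mean-variance trend) of Rarres2-/- minus WT, genotype being the only term, with Benjamini-Hochberg adjustment. The named genes were the 10 members, up to 4 genes per related list with the smallest p plus defining genes, and the 2 nearest genes in pattern per member, leaving out predicted and small RNA genes. Airn, Stc2, Irs1 and Pi16 were named for their role after values were seen. Fabp4 was named for its share of the summed white adipocyte markers, also after values were seen. Members and lists were chosen with earlier results of these data known. Positions and overlaps are from RefSeq and GENCODE M21 on GRCm38. Alternatives were a pseudocount of 0.1, no filter, at least 5 FPKM in 3 libraries, quantile and upper-quartile scaling, leaving the 20 most abundant genes out of the scaling, no trend, robust eBayes, array weights, an adjusted p of 0.1 and libraries left out. Rarres2-/- replicate 4 and WT replicate 1, which were also left out together, had stood apart in these same data. The tested genes stayed fixed when libraries were left out.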

Additional observations from a re-analysis of the deposited data

How the results depend on the processing

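No member was called by limma under 15 of the 17 alternatives, and 1, Igfbp5, was called with array weights (-0.85) and without both Rarres2-/- replicate 4 and WT replicate 1 (-0.92). The number of genes called over all tested genes was 1524 with array weights and 68 without both libraries. It was 1 with upper-quartile scaling, when the 20 most abundant genes were left out of the scaling, with at least 5 FPKM in 3 libraries and at an adjusted p of 0.1, and 0 to 1 with 1 library left out. Igfbp7 and Igf1r kept their sign in all alternatives. Igf2 turned to 0.021 with quantile normalization, 0.0052 with upper-quartile scaling and 0.038 without the 20 most abundant genes, Igfbp4 to -0.0074 with upper-quartile scaling and -0.0084 without both libraries, and Igf1 to -0.014 with array weights. With 1 library left out, the log2 difference ran from -0.56 to 0.50 for Igf2, from -0.17 to 0.17 for Igfbp4, from -0.68 to 0.13 for Igfbp5, from -0.91 to 0.37 for Igfbp6, from -0.083 to 0.26 for Igf2r, from -0.62 to 0.12 for Igfbp3, from 0.023 to 0.16 for Igf1, from -0.25 to -0.065 for Igf1r and from -0.59 to -0.058 for Igfbp7. The cause of these changes was not tested. Igf1r and Igf2 had no value with at least 5 FPKM in 3 libraries. No paired analysis was possible because the genotypes share no replicate numbers.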
